A study of Homo sapiens with 6 samples.

Results

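Transcripts of 8 metallothionein genes (MT2A, MT1A, MT1E, MT1F, MT1G, MT1H, MT1M and MT1X) and of the zinc exporter gene SLC30A1 were examined in boric acid-treated HepG2 cells, a human liver tumour line. Each gene was represented by 1 named Ensembl transcript, and all 9 transcripts were found among the 65527 transcript probe sets of the deposited table. The transcripts were selected by gene identity, with earlier results of these data known. The boric acid group comprised 3 arrays from cells that had grown for a day and then received 24 mM boric acid for 24 hours, the half-maximal inhibitory concentration given by the labels. The control group comprised 3 arrays from untreated HepG2 cells, and both groups shared the same low-glucose medium with serum and antibiotics. A vehicle treatment is not mentioned. Nothing in the labels ties each array to a culture of its own, so the p-values below reflect scatter among 6 arrays that may be partly technical. HepG2 is a single tumour-derived line, so the values describe that line.

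Metallothioneins are small, cysteine-rich proteins that hold zinc, copper and cadmium in thiolate clusters. They buffer free zinc, and liver cells make them in quantity when metals, glucocorticoids or oxidants reach the cell. Transcription of the genes is driven largely by MTF1, a zinc finger factor that senses zinc and binds metal response elements in their promoters. SLC30A1 (ZnT1) carries zinc out of the cell across the plasma membrane and is a classical MTF1 target as well, so the 9 genes cover the storage and the export of cellular zinc. In bulk RNA, fewer transcripts per cell and fewer cells of a kind cannot be told apart.

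Of the metallothionein transcripts, 3 were more than 2-fold lower in boric acid-treated cells. MT1X was 4.08-fold lower, MT1G 2.84-fold lower and MT1F 2.62-fold lower, while MT1A was 1.64-fold lower and passed the threshold narrowly. MT1E, MT1H and MT1M had lower means that did not pass it, and MT2A and SLC30A1 had nearly equal means in both groups. Neither SLC30A1 nor any of the metallothionein transcripts examined here was higher at the threshold. Other metallothionein and zinc exporter genes were not tested.

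RefSeq promoter sequences (GRCh38.p14) were held for 4 of the 9 genes. All 4 are shown, so availability and not the size of change set the choice. MT1X had the lowest and SLC30A1 the highest log2 change of the 9 genes, and MT1H and MT2A lay between them. Each run covers the 250 bases before the annotated start, 5′ to 3′ on the gene's own strand. Capitals mark the core of the metal response element, searched as TGCACNC or TGCGCNC on both strands.

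MT1X (chr16:56682220-56682469, + strand): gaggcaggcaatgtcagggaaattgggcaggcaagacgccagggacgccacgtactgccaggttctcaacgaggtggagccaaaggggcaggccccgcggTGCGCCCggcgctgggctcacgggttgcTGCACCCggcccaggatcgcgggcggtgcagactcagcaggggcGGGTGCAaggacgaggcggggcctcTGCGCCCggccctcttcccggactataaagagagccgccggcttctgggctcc

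MT1H (chr16:56669564-56669813, + strand): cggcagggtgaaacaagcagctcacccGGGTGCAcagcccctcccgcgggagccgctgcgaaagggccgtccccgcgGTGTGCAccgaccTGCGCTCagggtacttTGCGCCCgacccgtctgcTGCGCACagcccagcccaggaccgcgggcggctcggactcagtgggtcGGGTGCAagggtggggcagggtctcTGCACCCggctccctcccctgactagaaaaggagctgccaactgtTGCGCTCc

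MT2A (chr16:56608334-56608583, + strand): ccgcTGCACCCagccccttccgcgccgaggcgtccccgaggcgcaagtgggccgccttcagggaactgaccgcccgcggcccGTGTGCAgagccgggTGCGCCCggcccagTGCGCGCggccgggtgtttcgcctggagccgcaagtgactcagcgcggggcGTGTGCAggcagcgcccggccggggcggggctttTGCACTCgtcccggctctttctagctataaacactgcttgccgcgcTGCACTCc

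SLC30A1 (chr1:211579162-211579411, - strand): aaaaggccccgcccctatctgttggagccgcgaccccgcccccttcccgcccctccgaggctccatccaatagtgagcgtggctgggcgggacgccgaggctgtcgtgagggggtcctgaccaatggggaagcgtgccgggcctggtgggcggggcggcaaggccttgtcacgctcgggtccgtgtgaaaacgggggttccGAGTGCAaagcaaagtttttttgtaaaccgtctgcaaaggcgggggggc

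The MT1X window held 4 matches, the MT1H window 8, the MT2A window 7 and the SLC30A1 window 1, with no overlap between matches. At least 1 match was present in 24.8% of the 35116 promoters of the table. At least 4 were present in 0.37%, at least 7 in 0.0313% and at least 8 in 0.0171%. A match is only a run of letters and does not show binding. The core of the antioxidant response element, TGACNNNGC, was present once each in the MT1X, MT2A and SLC30A1 windows, not in the MT1H window, and in 10.9% of all promoters.

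The arrays had nearly equal distributions, with medians between 6.84 and 6.92 on the log2 scale of RMA signal. Boric acid array 1 stood apart: it differed from the other treated arrays by a median of 0.17 and 0.18 log2 units, whereas these differed from each other by 0.11. Control array 1 differed from its own group by 0.14 and 0.15, against 0.13 between the other controls. Transcripts brighter than the table's overall median (6.89) on 3 or more of the 6 arrays entered the main test, which gave 33710. Among the 9 genes, 7 passed. MT1H and MT1M were below that median on all 6 arrays and were read from the same fit without the filter. Groups were compared with limma, with Benjamini-Hochberg adjustment over all transcripts tested and a threshold of 0.05.

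MT1X, a metallothionein 1 isoform widely expressed in human tissues, showed the widest separation. The row ENST00000394485.4 read 8.87, 8.05 and 8.17 on boric acid arrays 1 to 3, against 9.81, 10.60 and 10.77 on control arrays 1 to 3. All treated arrays lay below all controls, and on both sides array 1 was the one nearest to the other group. Boric acid arrays averaged 8.37 ± 0.44 and control arrays 10.40 ± 0.51 (SD, n = 3 each). The log2 change was -2.03 with a standard error of 0.30 and a 95% interval of -2.73 to -1.33 (limma, adjusted p = 0.0023). Of the 33710 transcripts tested, 125 (0.371%) had a lower change.

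MT1G (ENST00000379811.3) fell to 10.61, 10.56 and 11.01 log2 units in boric acid, against 11.72, 12.59 and 12.38 in control cells. The lowest control array, number 1, was still above every treated array. Boric acid arrays averaged 10.73 ± 0.25 and control arrays 12.23 ± 0.45 (SD, n = 3 each), a log2 change of -1.51 (standard error 0.23, 95% interval -2.06 to -0.96; limma, adjusted p = 0.0028). A second transcript row, ENST00000444837.6, carried the same 6 values and so adds no independent reading.

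MT1F (ENST00000334350.6), another cysteine-rich isoform of the family, had signals of 9.74, 9.56 and 10.04 in boric acid, against 10.52, 11.50 and 11.49 in control cells. The groups did not overlap, and control array 1 again lay closest to the treated arrays. The log2 change was -1.39 with a standard error of 0.27 and a 95% interval of -2.03 to -0.75 (limma, adjusted p = 0.0066).

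**Figure D1:**
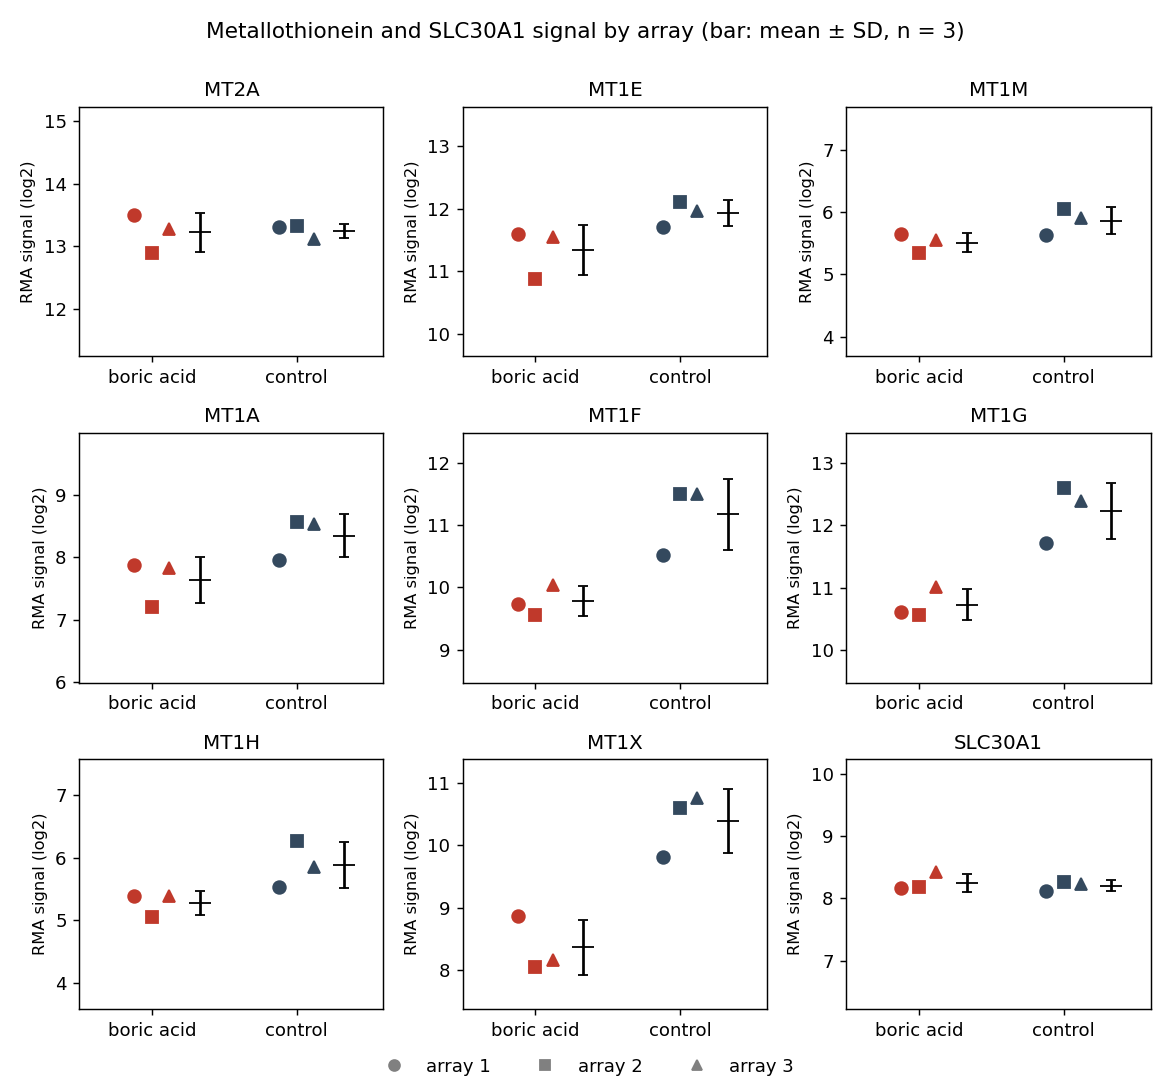
RMA log2 signal of each of the 9 transcripts on the 3 boric acid arrays (left, red) and the 3 control arrays (right, dark blue), with symbols for array numbers and the mean ± SD beside each group. Every panel spans 4 log2 units, so distances can be compared between panels. MT1X, MT1G and MT1F show the widest gaps, and MT2A and SLC30A1 overlap.

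MT1A (ENST00000290705.12) gave 7.87, 7.20 and 7.83 in boric acid, against 7.95, 8.57 and 8.53 in control cells. The groups did not overlap, but the difference of boric acid array 1 from control array 1 was only -0.082 log2 units. The log2 change was -0.72 with a standard error of 0.23 (limma, adjusted p = 0.041). This call was lost with the replicate number as a block (adjusted p = 0.0502), without the signal filter (0.065), with centred arrays (0.0506), and without boric acid array 2 (0.097), boric acid array 3 (0.058), control array 2 (0.129) or control array 3 (0.127).

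MT1E (ENST00000306061.10), which is expressed in liver and many other tissues, had signals of 11.60, 10.88 and 11.55 in boric acid, against 11.71, 12.12 and 11.97 in control cells. All treated arrays were below all controls, and the closest pair, the arrays numbered 1, differed by -0.10 log2 units. The log2 change was -0.59 (standard error 0.21, 95% interval -1.07 to -0.10), which missed the threshold (limma, adjusted p = 0.056). It passed without boric acid array 1 (log2 change -0.72, adjusted p = 0.028), after repeated quantile normalization (0.044), with a trended robust variance (0.043) and with array weights (0.016).

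MT1H and MT1M were dim, and the files do not show whether their signal exceeded background. MT1H (ENST00000332374.4) read 5.39, 5.05 and 5.39 in boric acid, against 5.53, 6.26 and 5.86 in control cells. Its groups did not overlap, and the log2 change was -0.61 (standard error 0.20; limma without the filter, adjusted p = 0.064). MT1M (ENST00000379818.3) read 5.64, 5.34 and 5.55 in boric acid, against 5.63, 6.05 and 5.90 in control cells. Here boric acid array 1 lay above control array 1, and the log2 change was -0.35 (standard error 0.14; limma without the filter, adjusted p = 0.11). A dim signal limits the decrease that an array can show, so neither value bounds the change in RNA from above.

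MT2A (ENST00000245185.5), in human cells a major metallothionein isoform, had signals of 13.50, 12.89 and 13.28 in boric acid, against 13.30, 13.32 and 13.12 in control cells. The groups overlapped completely, and boric acid array 1 was the highest of all 6 and boric acid array 2 the lowest. The log2 change was -0.024 with a standard error of 0.16 and a 95% interval of -0.40 to 0.36 (limma, adjusted p = 0.92). The interval did not reach the fitted changes of MT1X, MT1G, MT1F, MT1A, MT1H or MT1E, but it held that of MT1M (-0.35). Those changes have standard errors of their own, so this is a description. The MT2A signal was close to the array maxima of 13.63 to 13.78, where differences can be compressed, and this was not tested. The sign of so small a value depended on scaling, since it was 0.077 after repeated quantile normalization and 0.017 with centred arrays.

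SLC30A1 (ENST00000367001.4), the zinc exporter, read 8.16, 8.18 and 8.42 in boric acid, against 8.11, 8.27 and 8.23 in control cells. The groups overlapped, at a signal well inside the range of the arrays. The log2 change was 0.047 with a standard error of 0.11 and a 95% interval of -0.20 to 0.30 (limma, adjusted p = 0.75). The sign turned without boric acid array 3 (log2 change -0.037). Over the 6 arrays, each gene taken relative to its own control mean, the gene at the smallest distance from SLC30A1 among the other 8 was MT2A (root mean square difference 0.22 log2 units), followed by MT1M (0.31). For MT2A the nearest were SLC30A1 (0.22) and MT1M (0.29). This distance mainly reflects a change near 0, and the treated arrays did not rank alike: array 1 was the highest for MT2A and the lowest for SLC30A1.

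As a group, 4 of the 8 metallothioneins were called lower, 0 were called higher and 4 did not pass, and 3 of the 4 called were at least 2-fold lower. Over all tested transcripts, 19.2% were called lower, 23% higher (42.2% in either direction) and 4.45% lower by at least 2-fold. Without the filter, which is the fit that MT1H and MT1M come from, 11.7% of transcripts were called lower and 12.4% higher (24.1% in either direction). The balance of directions over the whole table depended on scaling: the 6471 lower and 7768 higher became 7065 lower and 6878 higher with cyclic loess, and 5948 lower and 8814 higher with centred arrays. The median log2 change of the 8 metallothioneins was -0.66, beside 0.024 for all tested transcripts. All treated arrays lay below all controls for 6 of the 8, as they did for 25.5% of tested transcripts and 19.6% of all rows. The family shares sequence and arrays, so these are not 8 independent readings. The count of 4 became 3 with the replicate block, without the filter, with centred arrays and without boric acid array 2 or 3 or control array 2 or 3, MT1A being the one lost. With array weights, 7 were called lower, that is every metallothionein 1 transcript measured here. That setting raised calls over the whole table too: of the 33710 filtered transcripts, 7527 were called lower and 9400 higher. MT1H and MT1M were read from the unfiltered fit, for which calls with array weights were not counted.

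**Figure D2:**
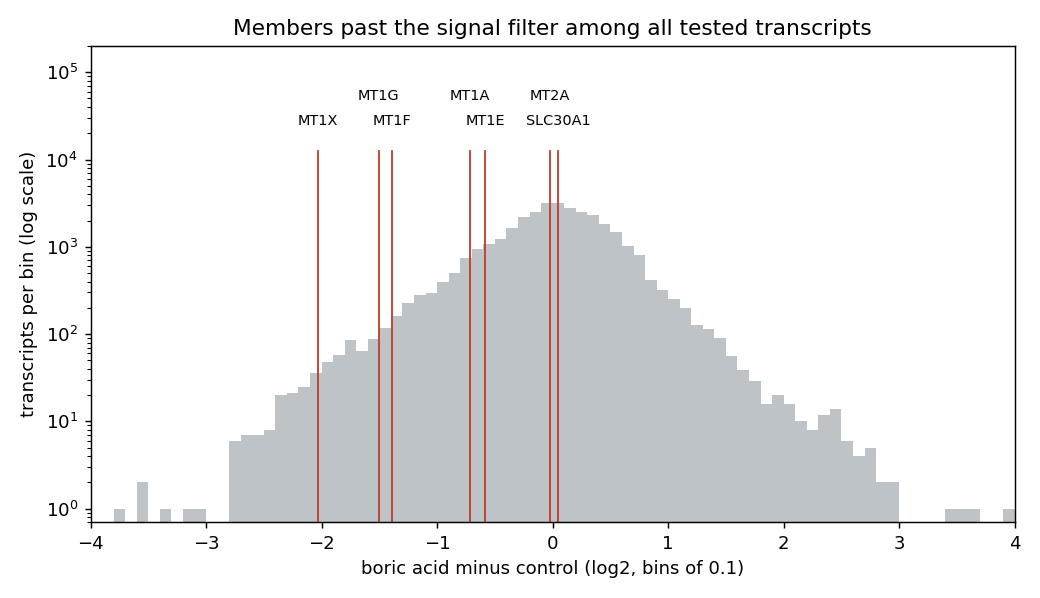
Number of tested transcripts by log2 change (boric acid minus control, bins of 0.1, log-scaled count axis), with red lines at the 7 transcripts that passed the signal filter. MT1X, MT1G and MT1F lie in the lower tail, where 0.371%, 1.40% and 1.81% of tested transcripts had a lower change, and MT2A and SLC30A1 lie at the centre.

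The metallothionein 1 transcripts and SLC30A1 were also set against MT2A on the same array. The log2 difference from MT2A, boric acid minus control, was -2.00 for MT1X, -1.48 for MT1G, -1.37 for MT1F, -0.69 for MT1A, -0.58 for MT1H and -0.56 for MT1E. For these 6 genes the values of the groups did not overlap. For MT1M (-0.33) and SLC30A1 (0.071) they did. The same 6 genes had no overlap on their own signal, and MT2A changed by only -0.024, so this largely restates their own changes. The share of all transcripts without overlap was not computed for the difference from MT2A. On their own signal, all treated arrays lay below all controls for 25.5% of tested transcripts and 19.6% of all rows. An exact two-sided permutation test over the 6 arrays gave p = 0.1 for each of the 6, the smallest p that 3 against 3 arrays can give, and 0.13 after Benjamini-Hochberg adjustment over the 8 comparisons with MT2A. The design therefore cannot reach the threshold by this test. Groups that do not overlap always give its smallest p, so the test adds nothing to the non-overlap. These are differences of signal. MT2A lies near the array maximum, where compression was not tested, and MT1H is dim, so they do not show an unequal change in RNA.

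The size of the change broadly followed the order of the genes along chromosome 16, a pattern noticed after the values were seen. In the RefSeq annotation of GRCh38.p14 the 8 genes follow each other in the order MT2A, MT1E, MT1M, MT1A, MT1F, MT1G, MT1H and MT1X, with other family members between some of them. The log2 changes in that order were -0.024, -0.59, -0.35, -0.72, -1.39, -1.51, -0.61 and -2.03. Spearman's rho between order and change was -0.83 over the 8 genes and -1.0 over the 6 that passed the signal filter. These are descriptions over neighbouring genes that share arrays and may share probes, with no test. The departures from the order were MT1M and MT1H, both dim, and the 6 that passed the filter leave them out. Some ranks rest on changes closer than their standard errors. Among the 6 that passed the filter these were MT1G (standard error 0.23) beside MT1F (0.27), and MT1A (0.23) beside MT1E (0.21). Over all 8, MT1H (standard error 0.20) was also this close to MT1E and to MT1A.

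**Figure D3:**
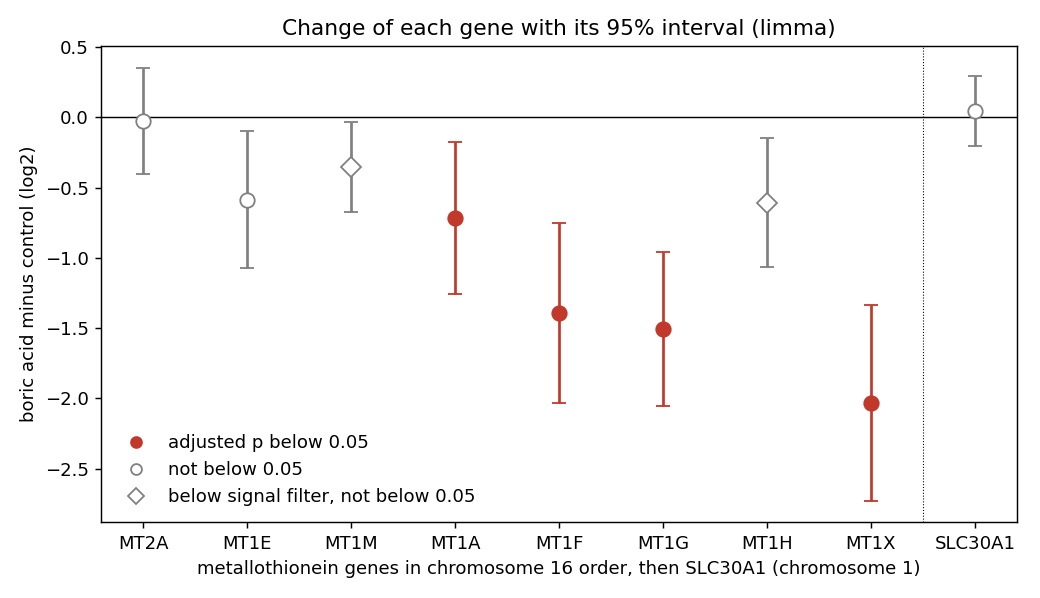
Log2 change (boric acid minus control) with its 95% interval from limma for the 8 metallothionein genes in chromosomal order and for SLC30A1. Filled red points passed an adjusted p of 0.05, open points did not, and diamonds are the dim MT1H and MT1M. Changes run from -0.024 at MT2A to -2.03 at MT1X.

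The decreases varied in size with the number of the arrays compared. Between the arrays numbered 1, the log2 difference of MT1X was -0.94, against -2.55 and -2.59 between those numbered 2 and 3. For MT1F it was -0.78 in number 1, against -1.94 and -1.46, and for MT1G -1.11, against -2.03 and -1.37. For MT1A, MT1E, MT1H and MT1M the number 1 differences were between -0.14 and 0.014, whereas number 2 gave -1.37, -1.23, -1.21 and -0.72 and number 3 gave -0.70, -0.42, -0.47 and -0.35. For MT2A the differences in numbers 1 to 3 were 0.21, -0.43 and 0.16. MT1X, MT1G and MT1F were thus lower in boric acid within all 3 numbers, and the 4 other metallothionein 1 genes were close to level in number 1.

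The arrays behind this order are the same ones that give the values within each number, so these repeat it and are no independent support. For the 6 brighter genes, which leave out the 2 that depart from the order, rho was -1.0 within number 2. Within number 3 MT1G and MT1F changed places (rho -0.94), and within number 1 MT1X and MT1G as well as MT1A and MT1E did so (rho -0.89). With both arrays numbered 1 left out, a choice made after seeing the data, 7 metallothioneins were called lower in place of 4. Calls over the 33710 filtered transcripts rose as well, from 6471 to 7044 lower and from 7768 to 8178 higher. MT1H and MT1M were among the 7 and came from the unfiltered fit, for which calls were not counted under this choice. The log2 change of MT1X was then -2.57 (limma, adjusted p = 2.1e-04) and that of MT1A -1.03 (limma, adjusted p = 0.0068), while MT2A was not called at -0.14 (limma, adjusted p = 0.49). What sets the arrays numbered 1 apart was not tested.

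**Figure D4:**
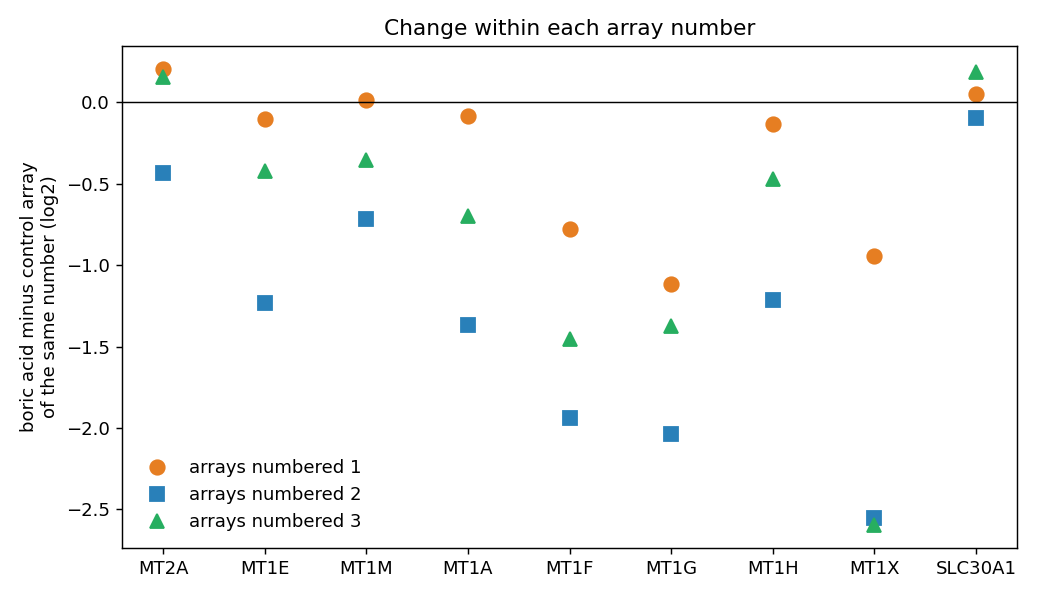
Log2 difference between the boric acid array and the control array of the same number, for each gene in chromosomal order and SLC30A1. For all 7 metallothionein 1 genes the arrays numbered 1 (circles) gave the highest of the 3 differences, which was just above 0 for MT1M, and MT1X was near -2.6 in numbers 2 and 3 but -0.94 in number 1.

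The transcript rows of other zinc and copper handling genes, such as MTF1 and the zinc importers of the SLC39 family, could not be counted, since the sources used here pair no further row with a gene name. Liver cell markers could not be checked for the same reason. Metallothionein transcripts are close to each other in sequence, and the probes behind each row are not listed, so part of a row's signal may come from a sister transcript.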

How the data were processed

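Total RNA of 6 HepG2 samples was biotin-labelled and hybridised to whole-transcript gene arrays, 1 per array. The deposited table holds log2 values made by the authors with RMA (version not stated), per the submitters' processing notes. The log2 scale was read from the values (2.56 to 13.78). Rows are named by Ensembl transcript ID, and no source used here gives the genome build or the probe set definitions. RMA's quantile step removes shifts of the whole distribution, so changes are relative to the array. Rows were linked to gene symbols through the list of 9 transcripts. All 9 symbols were in the RefSeq table.

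The groups were compared with limma 3.58.1 (R 4.3.3; lmFit, eBayes, no covariate, two-sided) over 33710 filtered rows (51.4%), or all 65527 rows for MT1H and MT1M. The number of arrays limits precision: the median standard error was 0.12 log2 units. All 9 genes are named by rule. Members and lists were chosen with earlier results of these data known. Arrays of the same number deviated together from their group means (r = 0.48, 0.17 and 0.20 over tested rows, above the limit of 0.1 for all 3). The numbers were therefore treated as pairs in the replicate block and in the differences within numbers. The main fit did not use them, so its p-values are unpaired. This pairing comes from the data and is not clean, since the highest correlation of boric acid array 2 was with control array 3 (0.38) and that of boric acid array 3 with control array 2 (0.21). Differences within numbers 2 and 3 are therefore descriptions. Alternatives were the filter, scaling, variance model, array weights, repeated rows, the block and leaving out arrays.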

Additional observations from a re-analysis of the deposited data

How the results depend on the processing

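MT1X, MT1G and MT1F were called lower under all 16 alternatives, including the replicate block (adjusted p = 0.0059, 0.0025 and 0.005). Without each array in turn their log2 changes ran from -2.32 to -1.84, -1.76 to -1.33 and -1.72 to -1.23. MT1A (-0.72) lost its call without the filter (adjusted p = 0.065), with centred arrays (-0.67, adjusted p = 0.0506) and with the replicate block (-0.72, adjusted p = 0.0502), and ran from -0.92 to -0.50 without each array in turn. MT1E passed after repeated quantile normalization (-0.64), with trend and robust hyperparameters (-0.59), with array weights (-0.74) and with both arrays numbered 1 left out (-0.83). It ran from -0.72 to -0.36 without each array in turn. With array weights MT1H (-0.71) and MT1M (-0.43) passed too, as they did with both arrays numbered 1 left out (-0.84 and -0.54). Leaving out each array in turn, MT1H ran from -0.78 to -0.42, passing without control array 1, and MT1M from -0.47 to -0.26. MT2A changed sign after repeated quantile normalization (0.077) and with centred arrays (0.017), and ran from -0.17 to 0.14 without each array in turn. SLC30A1 ran from -0.037 to 0.092. Neither MT2A nor SLC30A1 passed in any alternative. The count of genes called lower was 7 with array weights and 7 with both arrays numbered 1 left out, and 3 to 5 without each array in turn. Calls over the whole table also rose, to 7527 lower and 9400 higher with array weights. With both arrays numbered 1 left out they were 7044 lower and 8178 higher. The replicate block changed no call other than that of MT1A. Over the whole table, the filter at the 75th percentile called 3615 transcripts lower and 4579 higher because it tested fewer, and it left out MT1A and SLC30A1. Leaving out each array gave 4670 to 6516 lower and 5335 to 7569 higher, against 6471 and 7768. Except for these construction effects, the cause was not tested. The counts of the metal gene list were not run, because no further row could be named. Dim signal limits MT1H and MT1M, and a signal near the array maximum limits MT2A.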
